A study of Zea mays subsp. mays with 11 samples.

Results

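Growth of the anther from 2 mm to 5 mm was followed in the ago18 triple mutant of maize through the small RNAs held by its remaining Argonaute (AGO) proteins. The comparison used all CPM columns of the triple homozygous mutant, 3 libraries of 5 mm anthers (ago18HM-5mm) and 2 libraries of 2 mm anthers (ago18HM-2mm), which are 5 of the 11 libraries of the study. All 659 loci of the table were described, 430 loci of 21-nt phasiRNAs (21-PHAS) and 229 loci of 24-nt phasiRNAs (24-PHAS), the size being read from the locus name. The annotation of the study divides the 24-PHAS loci into 154 meiotic and 75 premeiotic loci, by their abundance in other anther libraries.

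The study asked how loss of all AGO18 copies changes the phasiRNAs of maize anthers. Both ago18HM groups carried CRISPR-Cas9 null alleles of ago18a and ago18b and a Mu transposon insertion in ago18c, all homozygous, in transgene-free plants labelled as mostly B73. The groups ago18HT-5mm and ago18HT-2mm, with 3 libraries each, came from siblings heterozygous for the same 3 mutations and carry 1 mutant copy of each gene, so they are not wild type. Replicates came from distinct plants, and anthers of 2 mm are meiotic whereas those of 5 mm are postmeiotic. Whole anthers were used, so cells of every anther layer and of the pollen lineage contributed.

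PhasiRNAs are made from long noncoding precursors that a Dicer-like protein slices at regular intervals. A miRNA-guided cut first opens the precursors of meiotic 24-PHAS loci and those of 21-PHAS loci. For premeiotic 24-PHAS loci, the study proposes that a miRNA is likely not the trigger. In maize anthers, miR2118 starts the 21-nt pathway and miR2275 starts the meiotic 24-nt pathway, in which DCL5 acts, and the small RNAs then enter AGO proteins. The TraPR kit was used to isolate small RNAs bound by AGO proteins, so the values below describe loaded phasiRNAs. AGO proteins differ in the first base they prefer, and rice MEL1 is known to bind 21-nt phasiRNAs that begin with cytosine.

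The most abundant small RNA of each locus, as listed in the locus annotation of the study, is printed below for the loci on which the results turn. That annotation was made from wild-type total small RNA and not from the TraPR libraries. The capital marks the first base at the 5′ end, since 21-PHAS loci differed by this base. The first 6 are from 21-PHAS loci that were lower in ago18HM-5mm than in ago18HM-2mm. Of these 6, 4 start with C, against 56 of all 430 21-PHAS loci.
B73_21PHAS_39762: Cagaagugguaucugaggcua
B73_21PHAS_3927: Ccaggcagcucgaacgcacuc
B73_21PHAS_39747: Cgaucacaacaaauaggccua
B73_21PHAS_38580: Cggcuaaugucuacugcaccc
B73_21PHAS_6427: Aguaggcgucgagacuuguuu
B73_21PHAS_21139: Aguuguauggacaucaucuag
The 21-PHAS loci B73_21PHAS_21101 and B73_21PHAS_39871, which were higher in ago18HM-5mm, both start with A, as do 324 of all 430 21-PHAS loci.
B73_21PHAS_21101: Aguggcugcagcaauagaggc
B73_21PHAS_39871: Acugccaaugauccgucgccu
The meiotic loci with the largest decreases and the meiotic locus with the largest increase also start with A, as did 144 of the 154 meiotic loci, so the first base separated nothing there.
B73_24PHAS_4204: Agcacuuaguuuuaggguugugac
B73_24PHAS_48391: Aagacacuguucuacuugcuucuc
B73_24PHAS_35078: Augaaguuuaaggagaaguacauc
B73_24PHAS_36488: Agcugaacuacaaauuaugcgaga
The last is the premeiotic locus that rose.
B73_24PHAS_20630: Aagucuaggcuagguuugucacug

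The CPM denominators were 17805878, 5419067 and 6675685 reads in the ago18HM-5mm libraries, and 53038060 and 36890255 reads in the ago18HM-2mm libraries. Every 2 mm library of the series was deeper than every 5 mm library, so depth and anther length cannot be told apart. Thinning all libraries to the lowest depth left 63 of the 24-PHAS loci lower against 66 at full depth. Thinning evens out counting noise only, so it does not separate depth from anther length. A value of 0 allows up to 3 reads, which is 0.0566 to 0.554 CPM in these 5 libraries, counting error only. Correlations across loci of log2(CPM + 1) were 0.897 to 0.970 among the ago18HM-5mm libraries and 0.910 between the ago18HM-2mm libraries. In the sibling set, ago18HT-2mm replicate 1 stood apart, with 25306 CPM in premeiotic loci against 9651 and 11076 CPM in the other ago18HT-2mm libraries. Counts, medians and overlaps that rest on the siblings are given with and without it, the ago18HM calls being kept as they were.

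Loaded meiotic 24-nt phasiRNAs were lower in the larger anthers of the mutant. Their summed level was 16420, 16838 and 11068 CPM in ago18HM-5mm, against 26351 and 41553 CPM in ago18HM-2mm. The groups did not overlap, and the mean was 14775 ± 3217 CPM (SD, n = 3) in ago18HM-5mm against 33952 ± 10749 CPM (SD, n = 2) in ago18HM-2mm, a ratio of 0.435. A comparison of 3 with 2 libraries allows 10 relabellings, so an exact permutation test of any single sum cannot go below p = 0.1. In bulk anthers, fewer cells of a type and less small RNA per cell cannot be told apart.

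Premeiotic 24-nt and 21-nt phasiRNAs moved much less as classes. Premeiotic loci summed to 10542, 8569 and 6321 CPM in ago18HM-5mm, against 8181 and 9370 CPM in ago18HM-2mm, and the groups overlapped. The 21-PHAS loci summed to 90448, 80573 and 86185 CPM in ago18HM-5mm, against 99098 and 89859 CPM in ago18HM-2mm, also with overlap. Hence 21-PHAS loci supplied 77.0%, 76.0% and 83.2% of the PHAS CPM in ago18HM-5mm, against 74.2% and 63.8% in ago18HM-2mm. All PHAS loci together took 10.4% to 11.7% of the denominator in ago18HM-5mm and 13.4% to 14.1% in ago18HM-2mm.

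**Figure D1:**
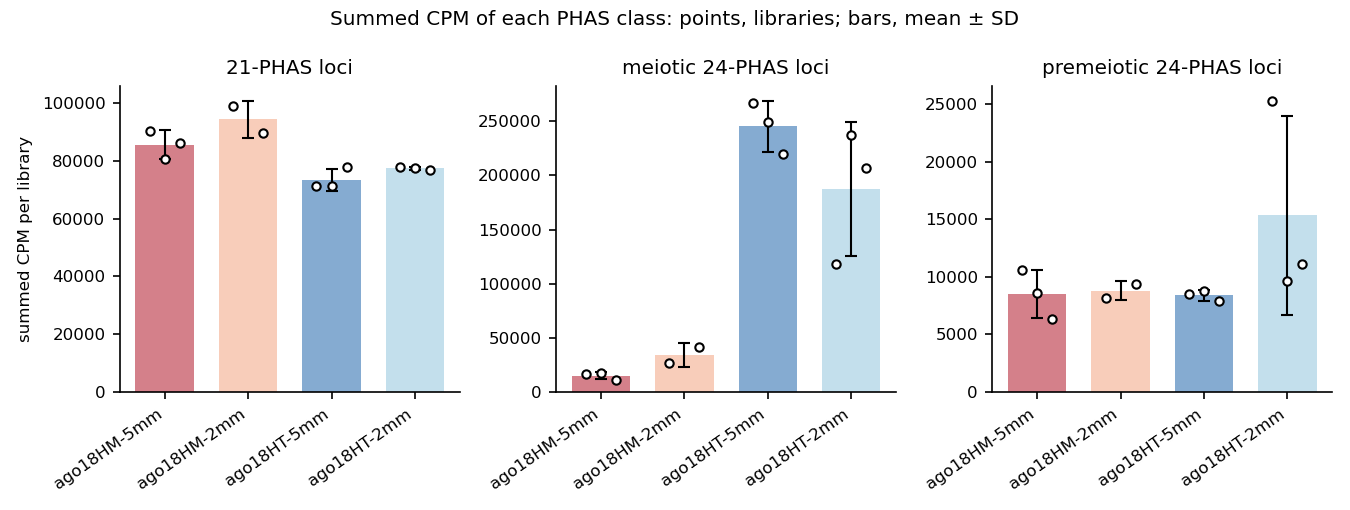
Summed CPM of the 21-PHAS, meiotic 24-PHAS and premeiotic 24-PHAS loci. Each point is a library, bars give the group mean and error bars the SD, and the vertical axis starts at 0. In the meiotic panel the 3 ago18HM-5mm libraries lie between 11068 and 16838 CPM, below both ago18HM-2mm libraries, whereas the ago18HM groups overlap in the other panels.

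Locus by locus, log2(CPM + 1) was fitted with limma over all 11 libraries, and a locus was called where it differed by more than 1.5-fold at a p under 0.05 after Benjamini-Hochberg adjustment over all 659. Of the 659 loci, 133 were lower (20.2%) and 26 were higher (3.95%) in ago18HM-5mm than in ago18HM-2mm. Among the 154 meiotic 24-PHAS loci, 66 fell and 3 rose, so 42.9% fell against the 20.2% of all loci. Among the 430 21-PHAS loci, 67 fell and 22 rose, or 15.6% and 5.12%. Of the 75 premeiotic loci 0 fell and 1 rose in the limma fit, and at an unadjusted p under 0.05 1 was lower and 1 higher.

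The median log2 fold change over all loci was -0.22, and it was -1.06 over meiotic, -0.09 over premeiotic and -0.12 over 21-PHAS loci. A log2 fold change below 0 was seen at 137 of the 154 meiotic loci. Centring each library on its 21-PHAS loci moved the median over all loci up by 0.17, and the meiotic median was then -0.89. The small medians of the 21-PHAS and premeiotic loci turned to 0.05 and 0.07. By construction this centring brings the 21-PHAS median near 0, so that value is not a result. With this centring 73 loci were lower and 32 higher, so 69.5% of the calls were decreases against 83.6% with CPM as deposited. Median ratio scaling gave 95 lower and 34 higher, or 73.6% decreases. A general fall of 21-PHAS or premeiotic loci is therefore not claimed, and single calls below are on the CPM scale as deposited.

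Counting only the order of the libraries gave the same picture for the meiotic loci. At 98 of the 154 meiotic loci, all 3 ago18HM-5mm libraries lay below both ago18HM-2mm libraries, against 34.7% of all loci. The reverse order was found at 3 meiotic loci, against 13.4% of all loci. The count of meiotic loci that fell rested on 2 libraries in particular, being 16 without ago18HM-2mm replicate 2 and 27 without ago18HM-5mm replicate 3. The meiotic median stayed between -1.47 and -0.69 without any 1 library. Where 1 of the ago18HM-2mm libraries is left out, the other is assumed to vary like the libraries of the remaining groups, here and wherever 1 library is left out below.

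**Figure D2:**
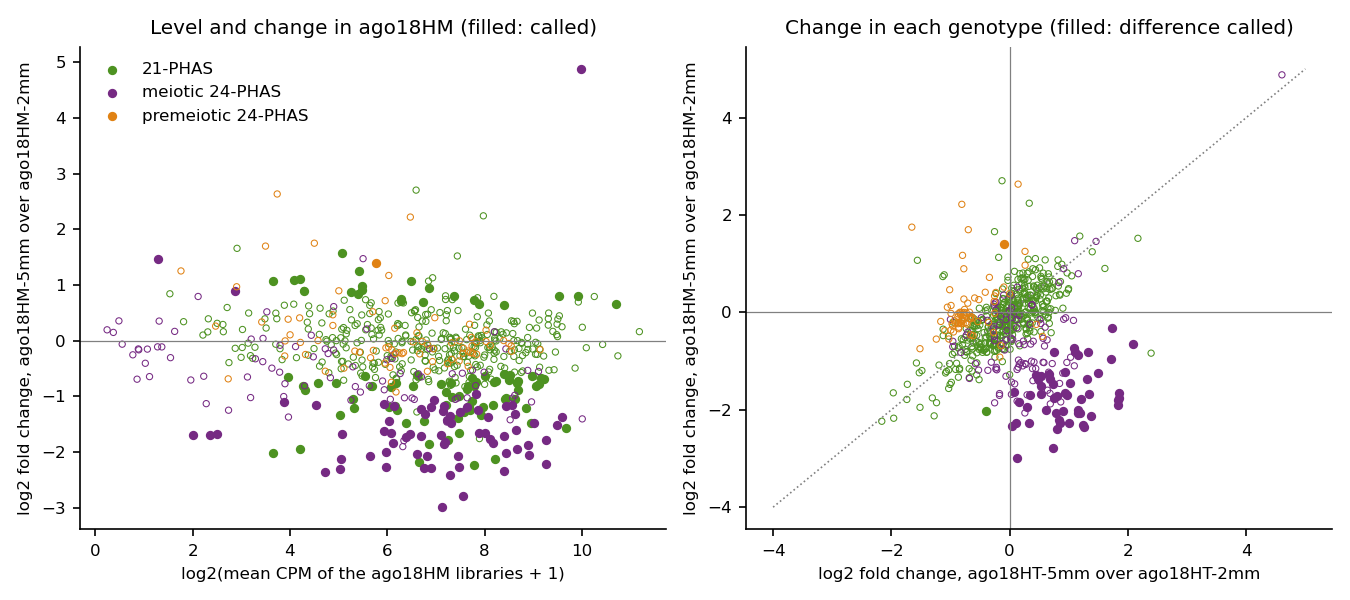
Left, log2 fold change of ago18HM-5mm over ago18HM-2mm against log2(mean CPM of the ago18HM libraries + 1), filled where called. Right, the same fold change against that of ago18HT-5mm over ago18HT-2mm, filled where the difference between the genotypes was called, with a dotted line of equal change. Of the 154 meiotic loci, 66 are called lower at left, and 52 have a called difference and lie below the dotted line at right, while B73_24PHAS_36488 stands alone at top right with 4.88 and 4.60.

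The meiotic decreases were of about 5- to 8-fold at the loci that changed most. B73_24PHAS_4204 (chr1:180557506-180559209, B73 RefGen_v5, no overlapping RefSeq gene) had 37.6, 35.2 and 34.6 CPM in ago18HM-5mm, against 299.5 and 282 CPM in ago18HM-2mm. The groups were far apart and each was tight, and the log2 fold change was -2.99 ± 0.38 (SE), with an adjusted p of 0.00143. B73_24PHAS_48391 (chr9:14069161-14071221) had 51.0, 64.8 and 49.3 CPM in ago18HM-5mm, against 379.7 and 386 CPM in ago18HM-2mm. The log2 fold change there was -2.79 ± 0.29 with an adjusted p of 0.000624.

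Chromosome 6 held a pair of strongly decreased meiotic loci. B73_24PHAS_35078 (chr6:38890221-38890872) had 64.9, 59.1 and 47.0 CPM in ago18HM-5mm, against 264 and 347 CPM in ago18HM-2mm, a log2 fold change of -2.40 ± 0.37. B73_24PHAS_35068 (chr6:38318854-38320678) had 134.8, 148.6 and 105 CPM in ago18HM-5mm, against 612 and 691 CPM in ago18HM-2mm, a log2 fold change of -2.33 ± 0.41. The adjusted p of the limma fit were 0.00316 and 0.00511. B73_24PHAS_35078 shares its most abundant small RNA with B73_24PHAS_35085, and a read that maps to more than 1 place was counted at every one, so the levels of these loci are not independent.

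Chromosome 5 held another such pair. B73_24PHAS_26989 (chr5:1487630-1487912) had 11.4, 9.41 and 6.59 CPM in ago18HM-5mm, against 48.8 and 50.9 CPM in ago18HM-2mm. B73_24PHAS_26995, which starts 4745 bp after its end (chr5:1492657-1493209), had 15.7, 12.4 and 7.79 CPM in ago18HM-5mm, against 58.3 and 64.1 CPM in ago18HM-2mm. Both were low at 5 mm in all 3 libraries, with log2 fold changes of -2.36 ± 0.67 and -2.31 ± 0.63 and adjusted p of 0.0322 and 0.0277. Their calls were less firm than those above, as they were lost in 5 and 4 of the 11 fits that left out 1 library, whereas the calls of B73_24PHAS_4204, B73_24PHAS_48391, B73_24PHAS_35078 and B73_24PHAS_35068 held in all 11.

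Among meiotic loci with high loaded levels, B73_24PHAS_32590 (chr5:219764853-219765833) had 162, 239 and 168 CPM in ago18HM-5mm, against 635 and 812 CPM in ago18HM-2mm. The groups did not overlap, and the log2 fold change was -1.94 ± 0.22 with an adjusted p of 0.00101. B73_24PHAS_30716 (chr5:161027802-161029669), among the 3 most abundant meiotic loci of the mutant, had 479.5, 587 and 345 CPM in ago18HM-5mm, against 925 and 1538 CPM in ago18HM-2mm. It fell with a log2 fold change of -1.37 ± 0.34 (adjusted p = 0.0222), a call that was lost without ago18HM-5mm replicate 3 (-1.17) or ago18HM-2mm replicate 2 (-1.01). B73_24PHAS_30716 shares its most abundant small RNA with B73_24PHAS_30735, so their levels are not independent. B73_24PHAS_4394 (chr1:187541379-187543289), the most abundant meiotic locus, had 502, 822 and 433 CPM in ago18HM-5mm, against 888 and 2504 CPM in ago18HM-2mm. Its 5 mm libraries were all below its 2 mm libraries, but the 2 mm libraries also lay far from each other, and the log2 fold change of -1.40 ± 0.52 did not pass (adjusted p = 0.0806).

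The decreases were more frequent at meiotic loci of higher level. Over all 11 libraries, 35 of the 51 most abundant meiotic loci fell, 24 of the next 51 and 7 of the 52 least abundant, with median log2 fold changes of -1.36, -1.17 and -0.31. The least abundant loci averaged 1.21 to 165 CPM over all libraries, and the pseudocount of 1 CPM shrinks the fold change of the lowest of them.

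Against this general decrease, 1 meiotic locus rose by more than any other locus of the table. B73_24PHAS_36488 (chr6:111847220-111847676, overlapping the protein-coding RefSeq gene LOC103629764) had 1781, 1841 and 1321 CPM in ago18HM-5mm, against 40.0 and 74.1 CPM in ago18HM-2mm. All 3 larger-anther libraries were high and both smaller-anther libraries low, with a mean of 1648 ± 285 CPM (SD, n = 3) in ago18HM-5mm against 57.0 ± 24.1 CPM (SD, n = 2) in ago18HM-2mm. The ratio of the means was 28.9, the log2 fold change was 4.88 ± 0.30 and the adjusted p was 2.4e-05. In the heterozygous siblings the same locus had 1615, 1699 and 2063 CPM in ago18HT-5mm, against 88.0, 54.0 and 79.6 CPM in ago18HT-2mm. The rise in ago18HT was of like size, 4.60 ± 0.27, and the difference between the genotypes was 0.28 ± 0.40 (adjusted p = 0.758). At 5 mm this locus alone supplied more CPM than any other meiotic locus of the mutant.

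The other meiotic loci that rose were near the lower end of the table. B73_24PHAS_880 (chr1:22958087-22958538, overlapping LOC100282662) had 9.15, 9.23 and 5.84 CPM in ago18HM-5mm, against 3.66 and 3.93 CPM in ago18HM-2mm, a log2 fold change of 0.90 ± 0.26 (adjusted p = 0.0325). B73_24PHAS_23943 (chr4:155449899-155451484) had 2.81, 2.58 and 1.498 CPM in ago18HM-5mm, against 0.23 and 0.14 CPM in ago18HM-2mm, a log2 fold change of 1.46 ± 0.44 (adjusted p = 0.0370). Their groups did not overlap, but each call was lost in 6 of the 11 fits without 1 library. All 3 of these loci also rose in ago18HT, so they were 100% of the meiotic loci that rose in ago18HM and 30.0% of the 10 that rose in ago18HT. Without ago18HT-2mm replicate 1 the ago18HT call of B73_24PHAS_23943 was lost (adjusted p = 0.0883), which left 2 loci that rose in both.

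The decrease of the meiotic class was not shared by the heterozygous siblings. Their meiotic loci summed to 266871, 249651 and 219707 CPM in ago18HT-5mm, against 117705, 237337 and 206990 CPM in ago18HT-2mm. Over all loci, 7.89% were lower and 4.7% higher in ago18HT-5mm than in ago18HT-2mm. Of the 154 meiotic loci 0 were called lower by limma in ago18HT, with 1 lower at an unadjusted p under 0.05, and 10 rose, with a median log2 fold change of 0.39. Without ago18HT-2mm replicate 1, limma called 0 lower and 10 higher, with 6 lower at an unadjusted p under 0.05, and the median was 0.17. The difference between the genotypes, ago18HM growth minus ago18HT growth, was tested in the same fit as an interaction term.

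This difference was called below 0 at 8.04% of all loci and above 0 at 0.152%. It was called below 0 at 52 of the 154 meiotic loci, at 1 of the 430 21-PHAS loci and at 0 of the 75 premeiotic loci, where limma gave 0 also at an unadjusted p under 0.05. Its median over the meiotic loci was -1.48. Without ago18HT-2mm replicate 1, the library that stood apart, 47 meiotic loci had a called difference and the median was -1.26. The count was more sensitive to other libraries, being 21, 20 and 17 without ago18HM-5mm replicate 1, 2 or 3, 12 without ago18HM-2mm replicate 2, and 19, 18 and 19 without ago18HT-5mm replicate 1, 2 or 3.

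The loci with the smallest p for the difference, B73_24PHAS_48391 and B73_24PHAS_32590, fell in the mutant and were not called in the siblings. B73_24PHAS_48391 had 2432, 2370 and 1681 CPM in ago18HT-5mm, against 852, 1574 and 1577 CPM in ago18HT-2mm, and the difference between the genotypes was -3.52 ± 0.39 (adjusted p = 0.00417). B73_24PHAS_32590 had 3197, 2423 and 2513 CPM in ago18HT-5mm, against 2142, 2262 and 2181 CPM in ago18HT-2mm, a difference of -2.23 ± 0.29 (adjusted p = 0.00597). Both loci were below ago18HT in all 5 ago18HM libraries, and both differences held without any 1 library.

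At 3 meiotic loci, B73_24PHAS_14671, B73_24PHAS_14681 and B73_24PHAS_35087, a call in ago18HM stood against the opposite call in ago18HT. B73_24PHAS_35087 (chromosome 6) had 154, 159.8 and 100.4 CPM in ago18HM-5mm, against 375 and 488 CPM in ago18HM-2mm, and 2529, 1899 and 1749 CPM in ago18HT-5mm, against 315, 811 and 701 CPM in ago18HT-2mm. Its log2 fold change was -1.65 in ago18HM and 1.85 in ago18HT, and the difference was -3.50 (adjusted p = 0.00731). B73_24PHAS_14671 and B73_24PHAS_14681 lie on chromosome 2 and share their most abundant small RNA, so they may count the same reads. All 3 opposite calls remained without ago18HT-2mm replicate 1. These 3 loci were chosen for their opposite calls after their values were seen.

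**Figure D3:**
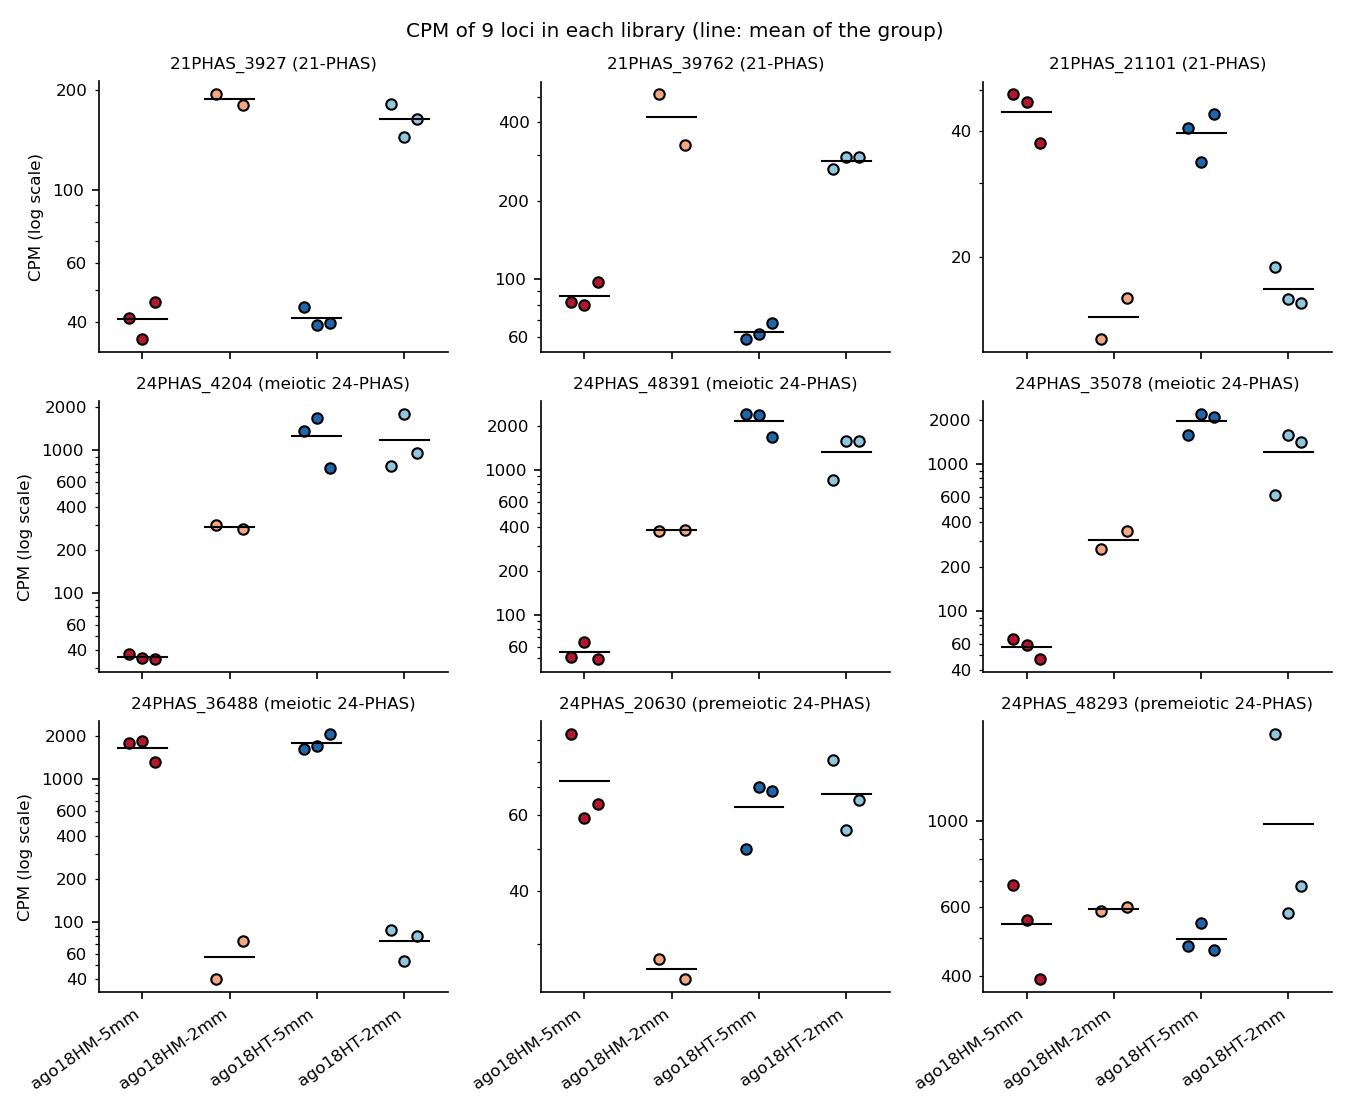
CPM on a log scale of 9 loci in each library, with ago18HM at left and ago18HT at right in each panel, points for libraries and a line for the group mean. The upper row shows 21-PHAS loci called in the same direction in both genotypes, the middle row meiotic loci that fell in ago18HM alone among the called changes, and the lower row the meiotic locus that rose in both (B73_24PHAS_36488, 1321 to 1841 CPM in ago18HM-5mm against 40.0 and 74.1 CPM in ago18HM-2mm) and 2 premeiotic loci.

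Premeiotic 24-PHAS loci, which differ from meiotic loci in being abundant before meiosis, changed little in the mutant. The most abundant, B73_24PHAS_48293 (chr9:12058888-12062850), had 683, 559 and 392 CPM in ago18HM-5mm, against 587 and 601 CPM in ago18HM-2mm, and its groups overlapped. The next, B73_24PHAS_48466 (chr9:16307697-16311878) and B73_24PHAS_51550 (chr9:151893610-151897518), also overlapped, with log2 fold changes of -0.09 ± 0.38 and -0.19 ± 0.34. The interquartile range of the premeiotic loci was -0.23 to 0.24.

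The single premeiotic call was B73_24PHAS_20630 (chr3:229511058-229512999), which overlaps the transcribed pseudogene LOC103651588. It had 93.2, 59.2 and 64.0 CPM in ago18HM-5mm, against 27.8 and 24.8 CPM in ago18HM-2mm. The 5 mm libraries were all more than 2-fold above the 2 mm libraries, and the log2 fold change was 1.40 ± 0.26 (adjusted p = 0.00637). In ago18HT it had 50.05, 69.8 and 68.5 CPM in ago18HT-5mm, against 80.9, 55.6 and 65.4 CPM in ago18HT-2mm, so that ago18HM-2mm was the low group. The difference between the genotypes was 1.49 ± 0.35 (adjusted p = 0.0380), but it was lost in 10 of the 11 fits without 1 library. The premeiotic median of the difference was 0.69, and 0.13 without ago18HT-2mm replicate 1, so it rested on that library.

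The 21-PHAS loci moved in both directions. The 67 that fell had log2 fold changes of -2.24 to -0.59, and the 22 that rose had 0.63 to 1.57. The decreases were at loci of higher level, with a median of 198 CPM in ago18HM against 76.7 CPM for those that rose. Without ago18HM-2mm replicate 1, 24 fell and 3 rose, and the rises also dropped to 5 without ago18HM-2mm replicate 2 and to 10 without ago18HM-5mm replicate 3, so the number of 21-PHAS calls depended on these libraries.

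The 21-PHAS loci with the largest decreases overlap no RefSeq gene. Of the 429 21-PHAS loci on chromosomes, only 31 overlap one. B73_21PHAS_3927 (chr1:167614010-167614633) had 41.1, 35.4 and 46.0 CPM in ago18HM-5mm, against 194 and 179 CPM in ago18HM-2mm. The groups were well apart, with a log2 fold change of -2.17 ± 0.17 and an adjusted p of 0.00011. B73_21PHAS_39762 (chr7:18460193-18461187) had 81.5, 80.1 and 98.0 CPM in ago18HM-5mm, against 513 and 327 CPM in ago18HM-2mm, a log2 fold change of -2.24 ± 0.20. B73_21PHAS_39747 (chr7:18238975-18239669) had 88.5, 136 and 154 CPM in ago18HM-5mm, against 672 and 433 CPM in ago18HM-2mm, a log2 fold change of -2.13 ± 0.26. All 3 begin with C, all 3 were low in every 5 mm library, and their calls held without any 1 library.

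In ago18HT the same loci fell too. B73_21PHAS_3927 had 44.4, 39.1 and 39.6 CPM in ago18HT-5mm, against 181, 144 and 164 CPM in ago18HT-2mm, a log2 fold change of -1.96 ± 0.15. B73_21PHAS_39762 had 58.9, 61.7 and 67.8 CPM in ago18HT-5mm, against 264, 294 and 295 CPM in ago18HT-2mm, a log2 fold change of -2.16 ± 0.18. For both the differences between the genotypes were small, -0.21 ± 0.23 and -0.07 ± 0.26, and did not pass. Across the class, 37 21-PHAS loci fell in both genotypes, which is 55.2% of those that fell in ago18HM and 71.2% of those that fell in ago18HT. Calls in the genotypes use the same estimate of the spread of a locus, so their overlap is not between independent calls. The 8 that rose in both were 36.4% of those that rose in ago18HM and 38.1% of those that rose in ago18HT. Without ago18HT-2mm replicate 1, 31 fell and 6 rose in both.

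A further pair of 21-PHAS decreases started with C and A. B73_21PHAS_38580 (chr6:168659384-168659700) had 3.03, 9.96 and 11.4 CPM in ago18HM-5mm, against 37.8 and 24.7 CPM in ago18HM-2mm, and its call was lost without either ago18HM-2mm library. B73_21PHAS_21139 (chr4:4129289-4130065) had 40.3, 59.8 and 64.6 CPM in ago18HM-5mm, against 255 and 153 CPM in ago18HM-2mm, a log2 fold change of -1.85 ± 0.28 (adjusted p = 0.00281). At both loci the 5 mm libraries were all below the 2 mm libraries, which was a condition for naming them.

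A single 21-PHAS locus was called for a difference between the genotypes. At an unadjusted p under 0.05 in the limma fit, the difference was below 0 at 15 21-PHAS loci and above 0 at 3. B73_21PHAS_6427 (chr1:255270500-255271065) had 6.51, 4.43 and 3.30 CPM in ago18HM-5mm, against 25.9 and 18.2 CPM in ago18HM-2mm. It was low in all ago18HM libraries compared with 33.8, 37.9 and 35.3 CPM in ago18HT-5mm and 46.6, 48.9 and 46.1 CPM in ago18HT-2mm. The log2 fold change was -2.02 ± 0.26 in ago18HM (adjusted p = 0.00143) and -0.40 ± 0.23 in ago18HT, and the difference was -1.63 ± 0.35 (adjusted p = 0.0301). The difference was lost in 7 of the 11 fits without 1 library.

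Among the increases, B73_21PHAS_21101 (chr4:3775083-3777239, overlapping 2 protein-coding genes, LOC111591350 and LOC100217284) had 49.1, 46.9 and 37.4 CPM in ago18HM-5mm, against 12.7 and 16.0 CPM in ago18HM-2mm. Its 5 mm libraries were all high, the log2 fold change was 1.57 ± 0.21 (adjusted p = 0.00198), and the call held without any 1 library. B73_21PHAS_39871 (chr7:21313820-21314569, overlapping LOC118473015) had 46.6, 48.2 and 69.8 CPM in ago18HM-5mm, against 23.5 and 20.9 CPM in ago18HM-2mm, a log2 fold change of 1.24 ± 0.32 (adjusted p = 0.0243). Both rose in ago18HT as well. B73_21PHAS_54320, B73_21PHAS_38212 and B73_21PHAS_43220 rose with log2 fold changes of 1.10, 1.09 and 1.08 and adjusted p of 0.0218, 0.0243 and 0.0222, but these 3 calls and that of B73_21PHAS_39871 were each lost in 1 to 3 of the fits without 1 library.

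The most abundant 21-PHAS loci changed by less. B73_21PHAS_21116 (chr4:3846664-3847416) had 1975, 2595 and 2728 CPM in ago18HM-5mm, against 2400 and 1930 CPM in ago18HM-2mm, and B73_21PHAS_11720 (chr2:141002472-141003716) had 2621, 1074 and 1180 CPM against 2223 and 1460 CPM. Both overlapped between the lengths. B73_21PHAS_11720 shares its most abundant small RNA with B73_21PHAS_11702, so their levels are not independent. B73_21PHAS_21386 (chr4:8029613-8030912, overlapping the lncRNA gene LOC103652799) had 2205, 1764 and 1900 CPM in ago18HM-5mm, against 1298 and 1171 CPM in ago18HM-2mm, and rose with a log2 fold change of 0.66 ± 0.17 (adjusted p = 0.0243), a call lost in 4 of the 11 fits without 1 library.

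The 21-PHAS decreases were spread unevenly over the first base of the major small RNA. Of the 56 loci whose major small RNA starts with C, 26 fell and 0 rose in the limma fit, with 1 higher at an unadjusted p under 0.05. Of the 324 that start with A, 36 fell and 20 rose. These are 46.4% and 11.1% decreases, against 20.2% of all loci, and the median log2 fold changes were -0.58 for C and -0.06 for A. Of the 30 loci that start with G, 4 fell and 1 rose, and of the 20 that start with U, 1 fell and 1 rose.

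In level, loci with 5′-C supplied 10.2%, 12.6% and 12.7% of the 21-PHAS CPM in ago18HM-5mm, against 17.2% and 15.9% in ago18HM-2mm. The groups did not overlap. Their summed level was 9224, 10180 and 10930 CPM in ago18HM-5mm, against 17005 and 14331 CPM in ago18HM-2mm, whereas loci with 5′-A summed to 72919, 61731 and 66219 CPM against 72845 and 66999 CPM. In the libraries of the siblings, which share none with the mutant groups, 5′-C loci supplied 12.05%, 13.0% and 11.9% in ago18HT-5mm, against 15.6%, 15.4% and 15.6% in ago18HT-2mm, again with no overlap. There 17 of the 56 fell, or 30.4% against 7.89% of all loci, and 0 rose, with 5 higher at an unadjusted p under 0.05. Without ago18HT-2mm replicate 1, 12 of the 56 fell and the median was -0.34, against -0.25 with it.

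The counts are also given by level of abundance, whose part in the result was not tested. In the lowest part of the 21-PHAS loci by mean CPM, 4 of the 17 loci with C and 9 of the 105 with A fell, against 15 of all 144. The counts were 12 of 20 and 10 of 109 in the middle part, against 23 of all 143. In the highest part they were 10 of 19 and 17 of 110, against 29 of all 143. After centring on the 21-PHAS loci, 18 of the 56 with C fell, with a median of -0.42, and without ago18HM-2mm replicate 1 the count was 11, against 12 of the 324 with A. The median GC content of the major small RNA was 47.6% for C and 42.9% for A, and its part in the result was not tested. The first base belongs to the major small RNA of the annotation, and other phasiRNAs of a locus start with other bases, so the values describe loci and not loaded 5′-C RNAs. The grouping by first base was made with earlier results known and no chance test was run on it.

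**Figure D4:**
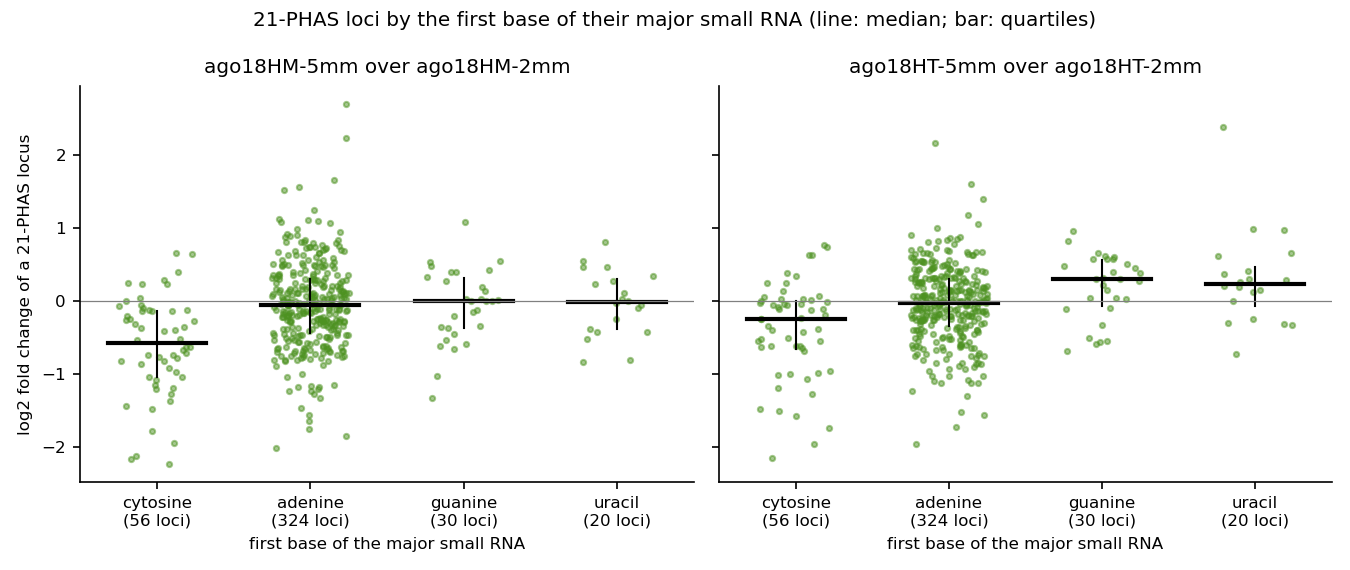
Log2 fold change of each 21-PHAS locus, grouped by the first base of its major small RNA, in ago18HM at left and ago18HT at right. Points are loci, the thick line is the median and the thin line spans the quartiles. The cytosine group has the lowest median in both genotypes, -0.58 in ago18HM and -0.25 in ago18HT.

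By position, the 21-PHAS loci that fell lay on all chromosomes, with 16 of the 70 on chromosome 7, 15 of the 93 on chromosome 2 and 13 of the 62 on chromosome 4. Of the meiotic loci, of which 42.9% fell in all, 7 of 10 fell on chromosome 2, 15 of 26 on chromosome 4, 11 of 21 on chromosome 6 and 10 of 37 on chromosome 1. The nearest locus of the same class also fell at 12 of the 67 21-PHAS loci that fell and was not called at 55. At the 22 that rose, it fell at 2 and was not called at 20. At the 66 meiotic loci that fell, it also fell at 27 and was not called at 39. In all, 15.6% of the 21-PHAS loci fell. Some close 21-PHAS loci moved in opposite directions. On chromosome 4, B73_21PHAS_21115 and B73_21PHAS_21117 lie 2141 bp apart on either side of the abundant B73_21PHAS_21116. The first had 22.1, 11.6 and 11.2 CPM in ago18HM-5mm, against 5.98 and 6.51 CPM in ago18HM-2mm, and rose by a log2 fold change of 1.08 (adjusted p = 0.0310). The second had 116, 175 and 172 CPM in ago18HM-5mm, against 283 and 255 CPM in ago18HM-2mm, and fell by 0.82 on the log2 scale (adjusted p = 0.0155). B73_21PHAS_14656 and B73_21PHAS_14657 on chromosome 2 and B73_21PHAS_39897 and B73_21PHAS_39899 on chromosome 7 also moved in opposite directions, all 3 pairs being chosen after their values were seen.

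Gene overlaps of the changed loci are given beside those of their class, and no difference was tested. Of the 67 21-PHAS loci that fell, 4 overlapped a RefSeq gene, as did 5 of the 22 that rose and 31 of the 429 on chromosomes. Of the 66 meiotic loci that fell, 11 did, as did 2 of the 3 that rose and 44 of the 152 on chromosomes. An identical major small RNA was shared by 43 of the 659 loci, 25 of them 21-PHAS and 18 meiotic, so their calls are uncertain where reads map to more than 1 of them.

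Replicates of the mutant differed far more at some loci than the growth contrast did. The SD of log2(CPM + 1) within the ago18HM groups had a median of 0.33 over all loci and exceeded 2 at 14 loci, none of which was called. Of these 14, 8 lie in 1 stretch of chromosome 1 (chr1:290185167-291858704), which holds 36 21-PHAS and 2 premeiotic loci. B73_21PHAS_7740 had 275, 2.95 and 2.40 CPM in ago18HM-5mm, against 0.62 and 130 CPM in ago18HM-2mm. B73_21PHAS_7757 had 98.2, 0.92 and 0.75 CPM against 0.08 and 78.7 CPM, and the premeiotic B73_24PHAS_7713 had 87.3, 1.11 and 0.45 CPM against 0.04 and 78.6 CPM. In each of them 1 library of each length was high and the others were near 0.

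The siblings showed the same split at these loci. B73_21PHAS_7740 had 2.36, 2.37 and 208 CPM in ago18HT-5mm, against 0.64, 0.79 and 124 CPM in ago18HT-2mm. At all 8 loci the same 4 libraries were highest, ago18HM-5mm replicate 1, ago18HM-2mm replicate 2, ago18HT-5mm replicate 3 and ago18HT-2mm replicate 3, which is 1 library of each group. These 4 libraries were the highest at 19 of the 38 loci of the stretch and at 0 of the other 621 loci. Within the stretch, B73_21PHAS_7738 and B73_21PHAS_7740 share their most abundant small RNA, as do B73_21PHAS_7744 and B73_21PHAS_7747. They may count the same reads, so these counts are not of independent loci. Other loci of the stretch, such as B73_21PHAS_7646 with 512, 544 and 645 CPM in ago18HM-5mm, against 391 and 594 CPM in ago18HM-2mm, did not split. The stretch was picked after its values were seen, and what sets these libraries apart was not tested.

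**Figure D5:**
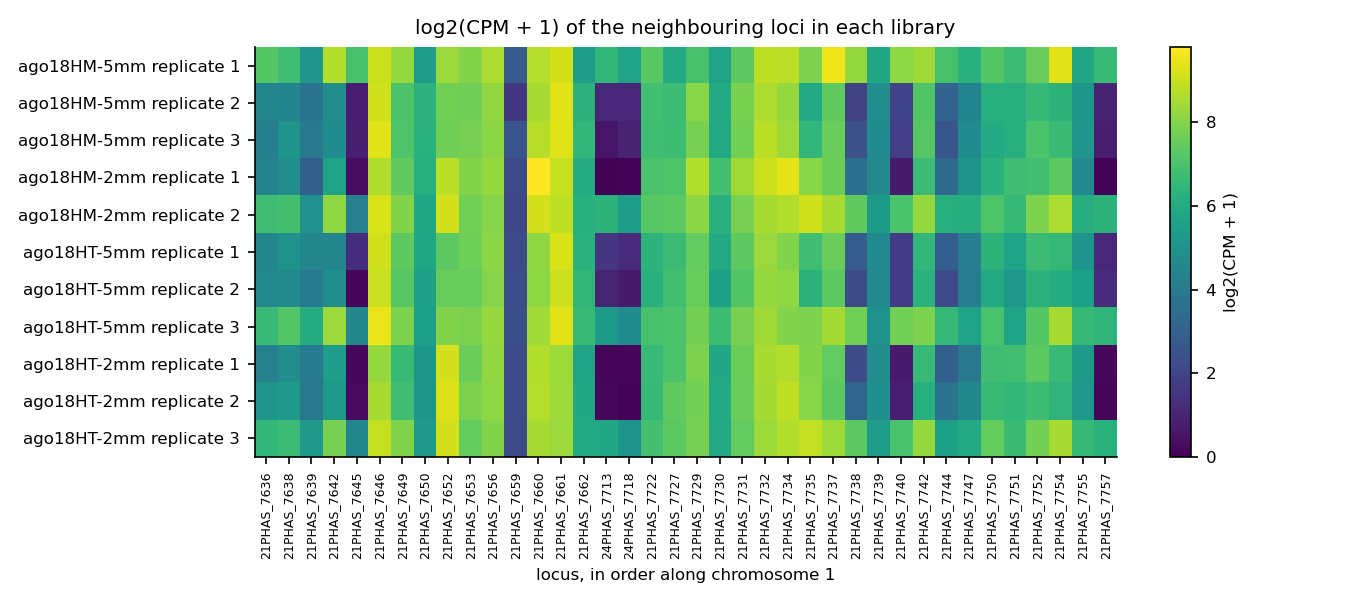
Log2(CPM + 1), as colour, of 38 neighbouring PHAS loci in order along chromosome 1 (columns) in each of the 11 libraries (rows). At 8 loci, such as B73_21PHAS_7740 and B73_21PHAS_7757, 1 library of each group is bright and the others are dark, and the same 4 libraries are the highest at 19 of the 38 loci.

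The 6 remaining loci with such spread lie elsewhere. B73_24PHAS_30723 (chr5:161390117-161391504) had 41.0, 43.2 and 26.2 CPM in ago18HM-5mm, against 0.58 and 111 CPM in ago18HM-2mm. B73_24PHAS_26392 (chr4:240142000-240143337) had 10.7, 11.4 and 35.4 CPM in ago18HM-5mm, against 0.49 and 86.3 CPM in ago18HM-2mm, and B73_21PHAS_22895 (chr4:76821311-76822246) had 20.8, 361 and 397 CPM against 356 and 19.7 CPM. The ago18HM-2mm libraries disagree by more than 10-fold at each, so growth could not be measured at these loci with 2 libraries.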

How the data were processed

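Small RNAs of whole anthers were isolated with the TraPR kit, and libraries were made with the RealSeq-AC kit and sequenced on a NextSeq 550. The authors mapped reads to B73 RefGen_v5 with Bowtie 1.3.1, counted them over PHAS loci with featureCounts 1.6.3, including reads with more than 1 mapping position, and deposited CPM values made with edgeR 4.0.2. Whether normalization factors entered the CPM is not given in the sources used here. Libraries were grouped by their labels, and 0 value columns lacked a sample.

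Log2(CPM + 1) was fitted with limma 3.58.1 in R 4.3.3, with a mean for each of the 4 groups and a trended empirical Bayes variance, after a filter of 1 CPM in at least 2 libraries that kept all 659 loci. P-values were two-sided and adjusted over these loci, and the fit was tested on simulated data. With a pseudocount of 1, fold changes of low loci are understated. CPM denominators were derived from the steps between low values, which were whole reads within 0.001 read at all values. The floor of 3 reads covers counting error only.

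Loci were named by a rule, which took the largest called changes without overlap between the groups (6 decreases and 5 increases of 21-PHAS, 6 and 3 of meiotic, every premeiotic call), the 3 most abundant and the 3 most variable loci, and the smallest p-values. Loci, lists and groupings were chosen with earlier results of these data known. Gene overlaps were read from the RefSeq annotation of the same build. Alternatives changed the pseudocount, filter, scaling, variance estimate, thresholds, depth, samples and pairing. Voom, a denominator without meiotic loci and ago18HT growth without ago18HT-2mm replicate 1 were added after seeing the data.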

Additional observations from a re-analysis of the deposited data

Results flagged for a closer look

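The growth change differed between ago18HM and ago18HT, by the interaction term of the limma fit, at 52 meiotic 24-PHAS loci, where it was lower in ago18HM, at 1 21-PHAS locus, also lower, and at 1 premeiotic 24-PHAS locus, where it was higher. Values below are log2 fold changes of growth in ago18HM minus those in ago18HT.

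Among the meiotic loci named by the rule, the difference was -3.61 at B73_24PHAS_26989, -3.56 at B73_24PHAS_26995, -3.52 at B73_24PHAS_48391, -3.19 at B73_24PHAS_35078 and -3.10 at B73_24PHAS_4204. It was -2.38 at B73_24PHAS_35068, -2.23 at B73_24PHAS_32590 and -2.05 at B73_24PHAS_30716. Over all meiotic loci it reached -3.74. At B73_24PHAS_26989 and B73_24PHAS_26995 it rests in part on ago18HT-2mm replicate 1, the library that stood apart. That library had 30.0 CPM at B73_24PHAS_26989, against 204 and 160 CPM in the other ago18HT-2mm libraries. At B73_24PHAS_26995 it had 50.7 CPM, against 284 and 239 CPM. It was also the lowest ago18HT-2mm library at the other meiotic loci listed here, to different degrees. At B73_24PHAS_35068 it had 1234 CPM, against 3584 and 3335 CPM. At B73_24PHAS_32590 it was closer, with 2142 CPM against 2262 and 2181 CPM. The 21-PHAS locus was B73_21PHAS_6427 with -1.63, and the premeiotic locus was B73_24PHAS_20630 with 1.49.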

How the results depend on the processing

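Of the main counts and ratios, 148 values stayed close to those reported and 39 moved under an alternative, and of the other counts and medians 636 stayed close and 97 moved. For the named loci 830 values stayed on the same side of the threshold, 88 lost a call, 1 gained one (B73_24PHAS_4394, -2.15 without ago18HM-2mm replicate 1) and 0 of the called values changed direction. The number of 21-PHAS loci that fell was 67, and 38 after centring on the 21-PHAS loci, 24 with only the ago18HM libraries and 30 at an adjusted p below 0.01. The number that rose was 22, and 4 with only the ago18HM libraries and 2 at the stricter p. For 24-PHAS loci 66 fell, against 35 after centring and 19 at the stricter p, and 4 rose, against 2 with a pseudocount of 5, a mean CPM of at least 10, thinned reads or the stricter p. The interaction was called lower at 52 24-PHAS loci, against 34 with a pseudocount of 5, 25 after centring, 33 with median ratio scaling and 12 at the stricter p. For 5′-C loci 26 fell, against 10 with only the ago18HM libraries and 13 at the stricter p. The ratio of summed CPM of all PHAS loci was 0.794, against 0.872 divided by the 21-PHAS sum and 0.738 at the median locus. As a share of all PHAS CPM, the ratio was 1.14 for 21-PHAS and 1.21 for premeiotic loci. Apart from the stricter p and the smaller sample, the cause was not tested.

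Without 1 library, 24 to 70 21-PHAS loci fell and 3 to 26 rose, 16 to 85 24-PHAS loci fell and 2 to 4 rose, 12 to 55 had a lower interaction and 11 to 26 5′-C loci fell. Replicate numbers were shared between groups, but same-numbered libraries did not deviate together, with a median correlation of -0.18 over 15 pairs, 5 of them over 0.1, against 0.10 over 30 other pairs. With a replicate block, 63 21-PHAS loci fell and 19 rose, 54 24-PHAS loci fell and 4 rose, and 36 had a lower interaction, and the interaction calls of B73_21PHAS_6427 (-1.55) and B73_24PHAS_20630 (1.498) were lost. The planned edgeR count test was not run. A voom fit on the recovered reads was made in its place, with 63 21-PHAS loci lower and 22 higher, 59 24-PHAS loci lower and 4 higher, and 36 with a lower interaction.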
